A study of Mus musculus with 6 samples.

Results

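The secreted and receptor layer of Wnt signalling was examined in whole mouse ovaries, as the genes whose symbols follow the names of 5 families, the Wnt ligands, the Frizzled receptors (Fzd), the secreted Frizzled-related proteins (Sfrp), the Dickkopf inhibitors (Dkk) and the R-spondins (Rspo). The names matched 41 of the 44788 genes listed, namely 19 Wnt, 10 Fzd, 4 Sfrp, 4 Dkk and 4 Rspo genes. Whole-ovary RNA was compared between mice aged 8 weeks on the C57BL/6 J strain, of which 3 were Bnc1+/+ (replicates 1, 4 and 7) and 3 were homozygous for the mutant allele, Bnc1tr/tr (replicates 1, 2 and 3). Bnc1 encodes basonuclin 1, a zinc finger protein, and tr is a germline allele in which a short exonic deletion shifts the reading frame to an early stop, so every cell of a homozygous mouse carries it. Both genotypes came from matings of heterozygous mice and the study's methods call its comparisons littermate ones, but which ovaries were from the same litter, and the estrous stage at collection, are not given in the sources used here. Each ovary was 1 library of RNA from mixed cells, and the values below are CPM, each gene's counts relative to its library's total, corrected with TMM factors.

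Wnt proteins are lipid-modified ligands that bind Frizzled receptors together with the co-receptors LRP5 or LRP6, which protects β-catenin from destruction and lets it act with TCF/LEF factors in the nucleus, or they act through β-catenin-independent routes such as planar polarity. Sfrp proteins bind Wnt ligands outside the cell, Dickkopf proteins block the co-receptors, and R-spondins raise receptor levels by acting on LGR4 to LGR6 and the ubiquitin ligases that remove Frizzled. In the ovary, WNT4 and RSPO1 are known for female gonad development, FZD4 is required for normal corpora lutea in mice, and Sfrp4 is known to be expressed in rodent corpora lutea.

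The promoters of members on which the results turn are shown to give the sequence before their annotated start sites. Where the transcripts start in these ovaries was not measured. RefSeq promoters of the GRCm38.p6 assembly were matched by symbol for 27 of the 41 genes, with 30 promoters in all, and no entry was found for Dkk3, Dkk4, Fzd2, Fzd3, Fzd6, Fzd8, Rspo2, Rspo3, Sfrp1, Sfrp4, Wnt10a, Wnt5a, Wnt7b and Wnt8a. The 250 bases before the start site are printed for Wnt10b (chr15:98778151-98778400, minus strand), Fzd4 (chr7:89404116-89404365, plus strand) and Wnt7a (chr6:91411354-91411603, minus strand), in the direction of transcription, with capitals marking the GC box GGGCGG on either strand.
Wnt10b: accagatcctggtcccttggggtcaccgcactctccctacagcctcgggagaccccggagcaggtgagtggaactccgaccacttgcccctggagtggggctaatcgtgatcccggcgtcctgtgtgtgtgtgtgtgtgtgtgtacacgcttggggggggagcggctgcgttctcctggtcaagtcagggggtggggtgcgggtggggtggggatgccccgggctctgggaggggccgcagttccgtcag
Fzd4: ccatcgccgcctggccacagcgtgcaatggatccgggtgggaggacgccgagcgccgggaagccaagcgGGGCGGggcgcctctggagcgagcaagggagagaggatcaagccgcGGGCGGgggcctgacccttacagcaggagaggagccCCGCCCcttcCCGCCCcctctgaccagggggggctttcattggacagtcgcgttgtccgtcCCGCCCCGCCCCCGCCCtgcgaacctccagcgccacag
Wnt7a: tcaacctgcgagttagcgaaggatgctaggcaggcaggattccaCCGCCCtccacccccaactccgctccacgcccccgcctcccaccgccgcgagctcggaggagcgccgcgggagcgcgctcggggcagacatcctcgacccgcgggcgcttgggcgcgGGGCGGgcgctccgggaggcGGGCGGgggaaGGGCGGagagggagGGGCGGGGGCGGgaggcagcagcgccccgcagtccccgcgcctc
The Fzd4 window held 7 GC boxes, some of them overlapping, and 72.8% G and C, the Wnt7a window held 6 and 77.6%, and the Wnt10b window held none and 66.8%. A GC box was found on either strand in 21 of the 30 promoters (70%), beside 32.7% of all 32851 promoters of the same length. The median G and C content was 68.8% against 52.4%. The GC box is itself all G and C, so these are not separate traits, and its share was not adjusted for base content. The TCF/LEF motif, searched on both strands as CTTTGAA or CTTTGAT or CTTTGTA or CTTTGTT, was in 4 of the 30 windows (13.3%, those of Dkk1, Fzd7, Wnt11 and Wnt5b) and in 14.8% of all promoters. The NR5A motif of steroidogenic gene regulators, as AAGGTCA or AAGGCCA, was in that of Sfrp2 alone (3.33%, against 9.09%), and TATAAA was in 4 (13.3%, against 12.4%). A match describes the letters of a window and does not show that a factor binds there.

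Total counts lay between 25247770 and 34406296 per ovary. Bnc1 itself had 375, 444 and 381 counts in Bnc1+/+ ovaries against 527, 355 and 326 in the mutants (log2 fold change 0.12, adjusted p = 0.733 with edgeR), and counts over a whole gene cannot show a short deletion. Markers of ovary were present in every library, with 10 oocyte genes at a summed 528 to 690.1 CPM in Bnc1+/+ and 658 to 1007 in Bnc1tr/tr, and 12 granulosa genes at 4729 to 6071 and 4979 to 7724. Oviduct epithelium markers stood apart in Bnc1tr/tr replicate 3, at a summed 583 CPM over 12 genes, and in Bnc1+/+ replicate 1, at 170, against 48.4 to 65.4 in the other 4 ovaries. Adipose markers, 6 genes, were summed at 337 and 250.1 CPM in Bnc1tr/tr replicates 1 and 2, against 16.5 to 91.5 in the other 4.

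Of the 41 genes, 30 had enough counts to be tested and 11 did not. With edgeR's quasi-likelihood test and Benjamini-Hochberg adjustment over 19423 genes, 4 of the 30 tested members (13.3%) passed an adjusted p of 0.05, beside 7.06% of all genes tested, a difference of few genes that was not tested and is not read as particular to the family. Wnt7a and Dkk3 were higher in Bnc1tr/tr ovaries (2.88% of all genes tested were higher), and Sfrp4 and Fzd4 were lower (4.19% were lower). In 14 of the 30 (46.7%) the values of the genotypes did not overlap, 9 with Bnc1tr/tr above and 5 below, where the same held for 30.8% of all genes tested, and 11 had an unadjusted p under 0.05, beside 24.2% of all. The median log2 fold change of the 30 was 0.11, against 0.018 over all genes tested, with 18 positive and 12 negative values. When scaled by library size alone the median of all genes moved to 0.12, and 22 of the members were then positive.

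**Figure D1:**
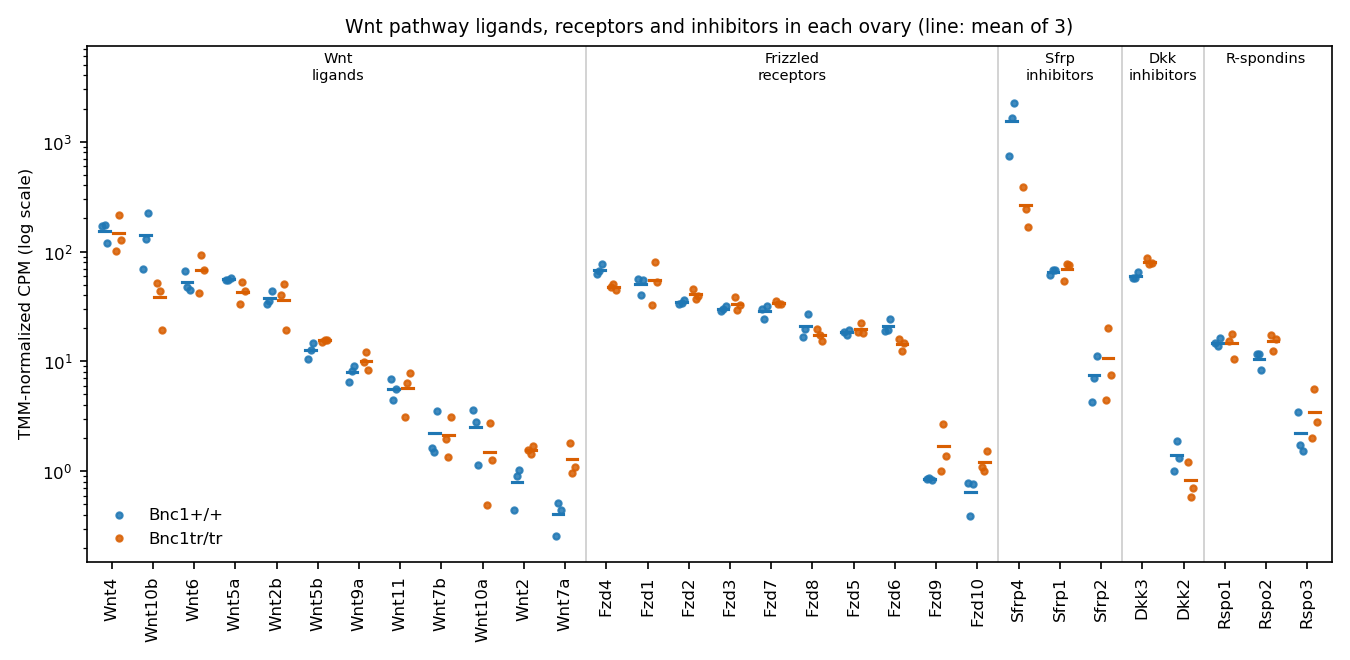
TMM-normalized CPM (log scale) of the 30 tested members in each of the 6 ovaries, by family, with a line at the mean of each genotype. Sfrp4 lay between 735 and 2263 CPM in the Bnc1+/+ ovaries, and all 3 Bnc1tr/tr ovaries lay below that range, between 168 and 387.

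Among the Wnt ligands, the largest difference was in Wnt10b, a β-catenin-activating ligand known for holding back adipocyte differentiation and for building bone. It was at 69.1, 131 and 222 CPM in Bnc1+/+ replicates 1, 4 and 7, and at 52.1, 43.8 and 19.3 CPM in Bnc1tr/tr replicates 1, 2 and 3. The genotypes did not overlap, but the highest Bnc1tr/tr ovary came close to the lowest Bnc1+/+ ovary, and the Bnc1+/+ ovaries differed widely among themselves. Means were 141 ± 77.05 and 38.4 ± 17.1 CPM (SD, n = 3), 3.67-fold lower in Bnc1tr/tr on the fitted scale, with a log2 fold change of -1.87 (SE 0.47) and an adjusted p of 0.0568 from edgeR, just short of the threshold. Its adjusted p was 0.0158 with DESeq2, 0.0208 with no filter on low counts and 0.0354 without Bnc1+/+ replicate 1, but it fell short in the other 10 of 13 alternatives, up to 0.126 with edgeR's robust fit and 0.165 without Bnc1+/+ replicate 4. Wnt10b lies on chr15:98770712-98778150, minus strand (GRCm38).

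Wnt7a, which patterns the Müllerian duct and its derivatives, was the ligand that passed the test. It was at 0.260, 0.514 and 0.448 CPM in Bnc1+/+ ovaries, from 7, 17 and 13 counts, and at 1.81, 0.962 and 1.09 CPM in Bnc1tr/tr ovaries, from 51, 25 and 31 counts. Every Bnc1tr/tr ovary was above every Bnc1+/+ ovary, and all 6 values were low. Wnt7a, on chr6:91363981-91411363 (minus strand), was 3.12-fold higher in Bnc1tr/tr (log2 fold change 1.64, SE 0.38, 95% interval 0.75 to 2.53, adjusted p = 0.0451). Of the 12 oviduct epithelium markers, 2 were higher in Bnc1tr/tr by the test (Pax2 and Ehf), none was lower and none was at 0, with 11 positive values and a median log2 fold change of 1.38. Pax2 is a transcription factor of the Müllerian duct and its epithelia. It was at 0.781, 1.15 and 0.862 CPM in Bnc1+/+ and 4.80, 2.04 and 2.71 CPM in the mutants. Like Wnt7a, Pax2 was highest in Bnc1tr/tr replicate 1. Most of the list was instead highest in Bnc1tr/tr replicate 3, Ehf among them (18.6, 12.5 and 23.3 CPM in the mutants). Ovgp1, at 423 CPM, carried most of the marker sum in replicate 3. The marker sum in Bnc1tr/tr replicate 1 was 52.9 CPM, within the range of the Bnc1+/+ ovaries. The part of oviduct or other epithelial RNA in the Wnt7a value was not tested. The call was lost when any 1 ovary was left out (adjusted p between 0.0539 and 0.138) and with limma-voom (0.0526).

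Wnt4 and Wnt6, the other abundant ligands, overlapped between genotypes. Wnt4, which is needed for the female gonad and made by granulosa cells, was at 172, 173 and 119.8 CPM in Bnc1+/+ and at 101, 213 and 129 CPM in Bnc1tr/tr. The log2 fold change of Wnt4 was -0.07, with a 95% interval from -0.70 to 0.56, so a difference of that size in either direction was not resolved with 3 ovaries a genotype. Wnt6, a ligand of epithelia, was at 67.0, 47.6 and 44.2 CPM against 41.9, 92.4 and 67.5 CPM (log2 fold change 0.35, 95% interval -0.30 to 0.99). Bnc1tr/tr replicate 2 was the highest of all ovaries for both Wnt4 and Wnt6, and replicate 1 the lowest.

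Wnt5a and Wnt5b, ligands best known for β-catenin-independent signalling, had fold changes of opposite sign that did not pass the test. Wnt5a was at 55.5, 54.9 and 56.9 CPM in Bnc1+/+ ovaries and at 33.5, 52.6 and 43.3 CPM in Bnc1tr/tr, the latter all lower (log2 fold change -0.37, SE 0.15, adjusted p = 0.186). Wnt5b was at 10.6, 12.6 and 14.7 CPM against 15.2, 15.6 and 15.8 CPM, all higher in Bnc1tr/tr (log2 fold change 0.29, SE 0.14, adjusted p = 0.235). The Bnc1+/+ ovaries were close together for Wnt5a (coefficient of variation 1.84%, against 22.2% in Bnc1tr/tr). Wnt2, a ligand known from the lung and placenta, was also without overlap, at 0.446, 0.906 and 1.03 CPM in Bnc1+/+ and 1.56, 1.42 and 1.69 CPM in Bnc1tr/tr (log2 fold change 0.96, SE 0.34, adjusted p = 0.132).

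The remaining tested ligands overlapped. Wnt2b, which is close to Wnt2 in sequence, was at 33.6, 35.1 and 44.1 CPM in Bnc1+/+ ovaries and at 39.9, 50.2 and 19.2 CPM in Bnc1tr/tr, with replicate 3 of the latter the lowest of all. Wnt9a was at 6.54, 8.25 and 9.07 against 9.92, 12.1 and 8.32 CPM, and Wnt11, which acts mainly through β-catenin-independent routes, was at 6.91, 4.41 and 5.59 against 3.09, 6.31 and 7.79 CPM. In none of these 3 ligands did the genotypes lie apart. Wnt7b was at 1.64, 1.51 and 3.55 against 1.96, 1.35 and 3.10 CPM, and Wnt10a was at 3.64, 2.81 and 1.14 against 0.498, 2.73 and 1.27 CPM. Their adjusted p-values were between 0.312 (Wnt9a) and 0.973 (Wnt11).

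A further 7 ligands had too few counts to test, and only their counts can be read. Wnt16 had 12, 3 and 7 counts in Bnc1+/+ against 2, 4 and 56 in the mutants, the 56 coming from Bnc1tr/tr replicate 3, the ovary with the most oviduct marker RNA, whose part in it was not tested. Wnt3 had no count in the 3 Bnc1+/+ ovaries and 5, 1 and 2 in Bnc1tr/tr. Wnt9b, Wnt3a, Wnt8a, Wnt1 and Wnt8b had at most 17 counts in any ovary, and Wnt8b had 1 count in each Bnc1+/+ ovary and none in Bnc1tr/tr.

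Levels divided by exon length give the make-up of the ligand pool. Summed over 19 genes, it was 116.8, 127.5 and 143.6 CPM per kb in Bnc1+/+ ovaries and 83.9, 138.1 and 90.4 in Bnc1tr/tr, which overlapped. Wnt10b held 17.4%, 30.2% and 45.5% of it in Bnc1+/+ ovaries and 18.3%, 9.33% and 6.27% in Bnc1tr/tr, which also overlapped, since the share in Bnc1+/+ replicate 1 was below that in Bnc1tr/tr replicate 1. Without Wnt10b the sums were 96.5, 89.0 and 78.3 against 68.5, 125.2 and 84.8 CPM per kb. The ligand with the largest share was Wnt4 in Bnc1+/+ replicates 1 and 4, Wnt10b in replicate 7, Wnt4 in Bnc1tr/tr replicates 1 and 2 and Wnt6 in replicate 3. On average Wnt10b was at 41.4 CPM per kb in Bnc1+/+ and 11.3 in Bnc1tr/tr, Wnt4 at 36.9 and 35.2, and Wnt6 at 24.2 and 30.7. Several Wnt genes lie next to each other in the genome and were far apart in level. Wnt6 and Wnt10a, 6.19 kb apart on chromosome 1 and on the same strand, were at 24.2 and 1.03 CPM per kb in Bnc1+/+ ovaries. Wnt10b and Wnt1, 11.7 kb apart on chromosome 15 and on opposite strands, were at 41.4 and 0.0381 CPM per kb, and Wnt9a and Wnt3a, 16.2 kb apart on chromosome 11, at 2.39 and 0.0608.

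**Figure D2:**
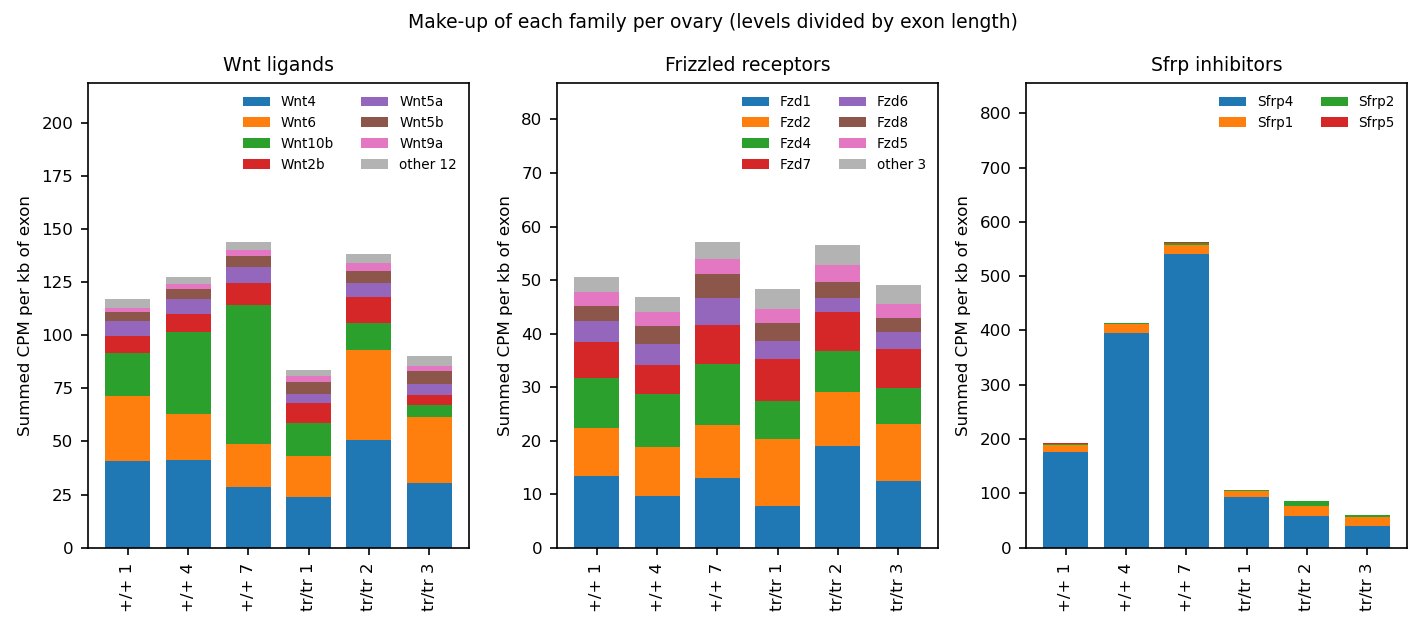
Stacked CPM per kb of exon in each ovary for the Wnt ligands, the Frizzled receptors and the Sfrp inhibitors, with the less abundant members summed in grey. Sfrp4 (blue in the right panel) made up between 66.2% and 96.3% of the Sfrp sum, and Wnt10b (green in the left panel) between 6.27% and 45.5% of the Wnt sum.

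Of the 10 Frizzled receptors, Fzd4 passed the test. Fzd4, a receptor for Wnt ligands and for Norrin that is prominent in endothelial cells, was at 62.6, 66.0 and 76.7 CPM in Bnc1+/+ ovaries and at 47.4, 50.7 and 45.01 CPM in Bnc1tr/tr. The genotypes were apart, with little spread within each. Means were 68.4 ± 7.35 and 47.7 ± 2.85 CPM (SD, n = 3), 1.43-fold lower in Bnc1tr/tr (log2 fold change -0.52, SE 0.10, 95% interval -0.75 to -0.29, adjusted p = 0.0258). In the same ovaries 6 endothelial markers were summed at 520.9, 576 and 696 CPM in Bnc1+/+ and 347, 379 and 391 in Bnc1tr/tr, with 4 of the 6 lower by the test and none at 0. The corpus luteum markers, 9 genes, were summed at 22680, 26450 and 24910 CPM against 6970, 12490 and 11020, with 7 of the 9 lower by the test. The part of endothelial or luteal RNA in the Fzd4 value was not tested. In whole ovaries fewer cells of a type cannot be told apart from less RNA per cell. Fzd4 lies on chr7:89404355-89413134, plus strand. Its adjusted p rose to between 0.0514 and 0.0959 without any one of Bnc1+/+ replicates 4 and 7 and Bnc1tr/tr replicates 1 and 3.

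Fzd6, a receptor of planar polarity, was the other Frizzled gene lower in all 3 Bnc1tr/tr ovaries, at 18.7, 19.2 and 24.5 CPM in Bnc1+/+ and 15.8, 12.5 and 14.8 in Bnc1tr/tr. Its log2 fold change of -0.53 (SE 0.14) was like that of Fzd4 but did not pass (adjusted p = 0.0683), and it passed with DESeq2 (0.0183). Fzd8 was at 16.5, 19.7 and 27.2 against 19.7, 17.2 and 15.4 CPM, which overlapped (adjusted p = 0.419). No other Frizzled gene had a negative log2 fold change.

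The remaining Frizzled genes had log2 fold changes between 0.09 and 0.98, none past the test. Fzd2 was at 33.1, 34.1 and 36.2 CPM in Bnc1+/+ and 46.0, 36.9 and 39.1 in Bnc1tr/tr (log2 fold change 0.24, adjusted p = 0.211). Fzd7 was at 30.2, 24.4 and 32.2 against 35.7, 33.5 and 33.2 CPM (0.24, adjusted p = 0.260). These 2 genes, and the rare Fzd9 and Fzd10, did not overlap between genotypes. Fzd9 was at 0.855, 0.876 and 0.828 against 0.996, 2.69 and 1.37 CPM (0.98, adjusted p = 0.177), and Fzd10 was at 0.781, 0.393 and 0.759 against 1.10, 1.001 and 1.52 CPM (0.91, adjusted p = 0.161). Fzd1, Fzd3 and Fzd5 overlapped. Fzd1 was at 56.3, 40.2 and 55.01 CPM in Bnc1+/+ and, with a wider spread, at 32.9, 80.0 and 52.5 in Bnc1tr/tr, where replicate 2 was the highest and replicate 1 the lowest, as for Wnt4 and Wnt6. Fzd3, which works with Fzd6 in planar polarity, was at 28.8, 29.8 and 31.7 against 38.4, 29.5 and 32.3 CPM. Fzd5 was at 18.7, 17.5 and 19.3 against 18.7, 22.3 and 18.1 CPM. Summed per kb of exon, the 10 receptors were at 50.6, 46.8 and 57.0 CPM in Bnc1+/+ ovaries and 48.4, 56.6 and 49.1 in Bnc1tr/tr. Fzd1 led that sum in Bnc1+/+ replicates 1 and 7 and Bnc1tr/tr replicates 2 and 3, Fzd4 in Bnc1+/+ replicate 4 and Fzd2 in Bnc1tr/tr replicate 1.

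Sfrp4 had the highest level per kb and the largest fold change of the 30 tested genes. It was at 735, 1653 and 2263 CPM in Bnc1+/+ replicates 1, 4 and 7, from 19759, 54722 and 65606 counts, and at 387, 243 and 168 CPM in Bnc1tr/tr replicates 1, 2 and 3, from 10869, 6320 and 4778 counts. All Bnc1tr/tr ovaries were below all Bnc1+/+ ovaries, and Bnc1+/+ replicate 1 stood between its own group and the other. Means were 1550.2 ± 769 and 266 ± 111 CPM (SD, n = 3), 5.83-fold lower in Bnc1tr/tr, with a log2 fold change of -2.54 (SE 0.45, 95% interval -3.58 to -1.51) and an adjusted p of 0.0174. Sfrp4 lies on chr13:19623104-19632994, plus strand. The log2 fold change stayed between -2.91 and -2.18 under 13 other ways of processing. The adjusted p passed the threshold without Bnc1+/+ replicate 1 (0.0101) or Bnc1tr/tr replicate 1 (0.0204), and was 0.0848, 0.0566, 0.0521 and 0.0527 without Bnc1+/+ replicates 4 and 7 and Bnc1tr/tr replicates 2 and 3.

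Sfrp4 is a corpus luteum gene in rodents, and most other markers of that tissue were lower in the same ovaries, whereas Akr1c18 and Parm1 overlapped between genotypes. Without Sfrp4, 9 corpus luteum markers were summed at 22680, 26450 and 24910 CPM in Bnc1+/+ and at 6970, 12490 and 11020 in Bnc1tr/tr, with 7 of the 9 lower by the test, none higher and none at 0 in any ovary. Their median log2 fold change was -1.52, and that of Sfrp4 was -2.54. Within the mutants the marker sum, most of it Cyp11a1 and Hsd3b1, was lowest in Bnc1tr/tr replicate 1, the mutant ovary with the most Sfrp4. Most of the single markers were also lowest in that ovary, and only Lhcgr and Ptgfr were lowest in Bnc1tr/tr replicate 3, as Sfrp4 was. The luteal prostaglandin receptor Ptgfr was at 119, 244 and 424 CPM in Bnc1+/+ and 65.2, 81.9 and 42.5 CPM in Bnc1tr/tr. Ptgfr, Akr1c18, Cyp11a1 and Prlr ordered the Bnc1+/+ ovaries as Sfrp4 did. The other markers did not, and Parm1 had the reverse order. The part of luteal cell number in the Sfrp4 value was not tested. From lowest to highest, Sfrp4 and Wnt10b ordered the 6 ovaries alike, as Bnc1tr/tr replicates 3, 2 and 1 and Bnc1+/+ replicates 1, 4 and 7, which is given as a description of 6 libraries.

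Sfrp1, a Wnt-binding inhibitor of broad expression, and Sfrp2 overlapped between genotypes. Sfrp1 was at 61.6, 68.2 and 67.6 CPM in Bnc1+/+ and at 53.6, 77.5 and 74.7 in Bnc1tr/tr (log2 fold change 0.06, 95% interval -0.27 to 0.39). Sfrp2 was at 4.24, 7.13 and 11.1 against 4.48, 19.98 and 7.47 CPM (0.50, 95% interval -0.78 to 1.78), with Bnc1tr/tr replicate 2 the highest. Sfrp5 had 4, 4 and 2 counts against 5, 1 and 3 and was not tested. Per kb, the Sfrp sum was 191.9, 415 and 562 CPM in Bnc1+/+ and 106.9, 85.2 and 60.9 in Bnc1tr/tr, and Sfrp4 held 91.6%, 95.4% and 96.3% of it in the former and 86.5%, 68.3% and 66.2% in the latter. Without Sfrp4 the sums overlapped, at 16.1, 19.0 and 20.6 against 14.4, 27.0 and 20.6 CPM per kb.

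Dkk3, a divergent member of its family whose action on Wnt signalling is less settled than that of the others, was higher in Bnc1tr/tr ovaries. It was at 57.0, 57.3 and 65.6 CPM in Bnc1+/+ and at 86.4, 76.5 and 79.3 CPM in Bnc1tr/tr, with no overlap. Means were 59.9 ± 4.87 and 80.8 ± 5.11 CPM (SD, n = 3), 1.35-fold higher (log2 fold change 0.43, SE 0.09, 95% interval 0.22 to 0.64, adjusted p = 0.0347). Dkk3 lies on chr7:112116017-112159057, minus strand. Its adjusted p was 0.0489 without Bnc1tr/tr replicate 2 and between 0.0501 and 0.153 without any one of the other 5 ovaries. Dkk2, an LRP-binding Dickkopf, was at 1.004, 1.90 and 1.31 against 1.21, 0.577 and 0.705 CPM and overlapped (log2 fold change -0.76, adjusted p = 0.266). Dkk4 had 0, 1 and 0 counts in Bnc1+/+ ovaries and 15, 3 and 5 in Bnc1tr/tr, and Dkk1, the classical LRP5 and LRP6 inhibitor, had 0, 0 and 1 against 0, 0 and 8, the 8 again in Bnc1tr/tr replicate 3. Dkk3 made up at least 97.0% of the Dkk sum per kb in every ovary.

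None of the R-spondins passed the test. Rspo1, which acts with WNT4 in ovary development, was at 14.6, 13.7 and 16.2 CPM in Bnc1+/+ and 15.4, 17.8 and 10.5 in Bnc1tr/tr (log2 fold change -0.03, 95% interval -0.47 to 0.41). Rspo2, known as a product of oocytes, was at 11.6, 11.6 and 8.31 against 17.4, 12.3 and 16.1 CPM, all higher in Bnc1tr/tr (log2 fold change 0.54, SE 0.18, adjusted p = 0.126). The summed oocyte markers were 690.1, 648 and 528 CPM in Bnc1+/+ and 1007, 658 and 1005 in Bnc1tr/tr, with 3 of 10 higher by the test, none lower and none at 0, so Bnc1tr/tr replicates 1 and 3 were the highest for both Rspo2 and these markers. The part of oocyte RNA in the Rspo2 value was not tested. Rspo3 was at 3.49, 1.72 and 1.52 against 1.99, 5.62 and 2.82 CPM and overlapped (adjusted p = 0.449), and Rspo4 had at most 4 counts in any ovary.

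**Figure D3:**
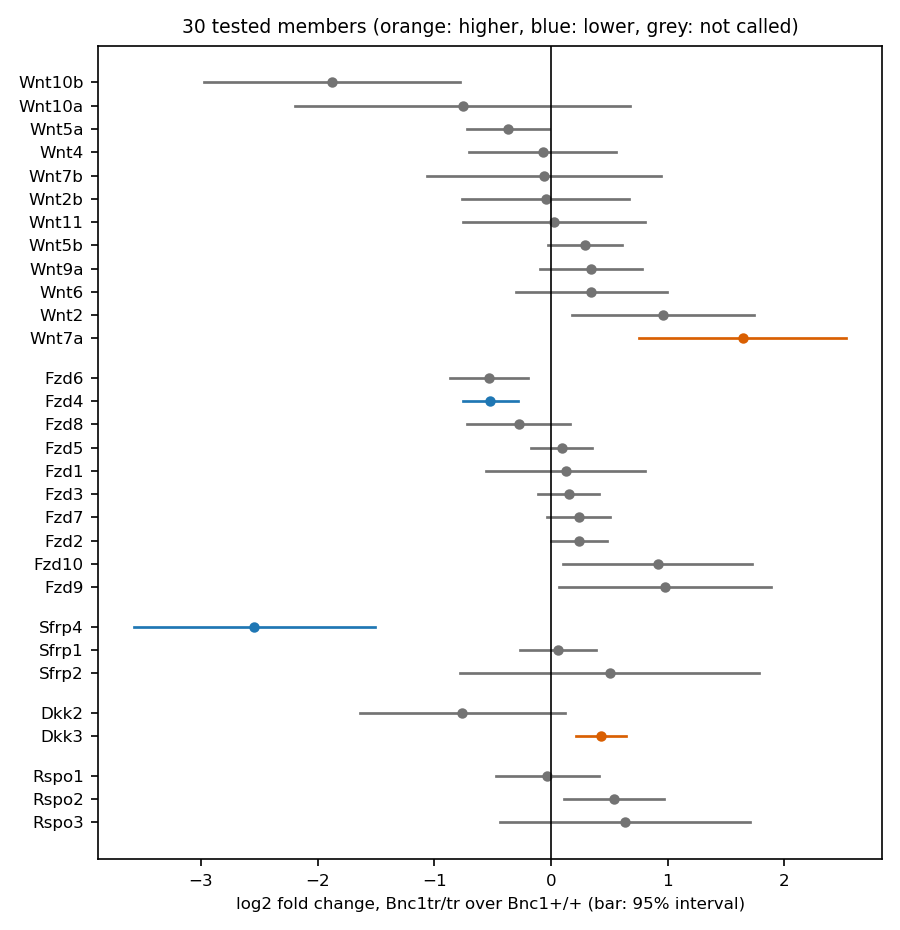
Log2 fold change of Bnc1tr/tr over Bnc1+/+ (x axis, bars show the 95% interval) for the 30 tested members, by family. Wnt7a and Dkk3 (orange) and Sfrp4 and Fzd4 (blue) passed an adjusted p of 0.05, and Wnt10b (grey) had the second most negative value, -1.87, with an adjusted p of 0.0568.

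The spread among ovaries differed from gene to gene. The coefficient of variation was larger in Bnc1tr/tr for 18 of the 30 tested members and larger in Bnc1+/+ for 12, with medians of 24.1% and 17.9%. For Sfrp4 it was 49.6% in Bnc1+/+ and 41.7% in Bnc1tr/tr, and for Wnt10b 54.7% and 44.5%, so the members with the largest negative fold changes were also variable in both genotypes. Exons of 7 members (Wnt5a, Wnt11, Wnt7b, Fzd5, Fzd6, Sfrp2 and Rspo3) share between 3.15% and 17.8% of their bases with a gene on the opposite strand, and reads of the pair cannot be told apart without strand-aware counting, which is not given in the sources used here.

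**Figure D4:**
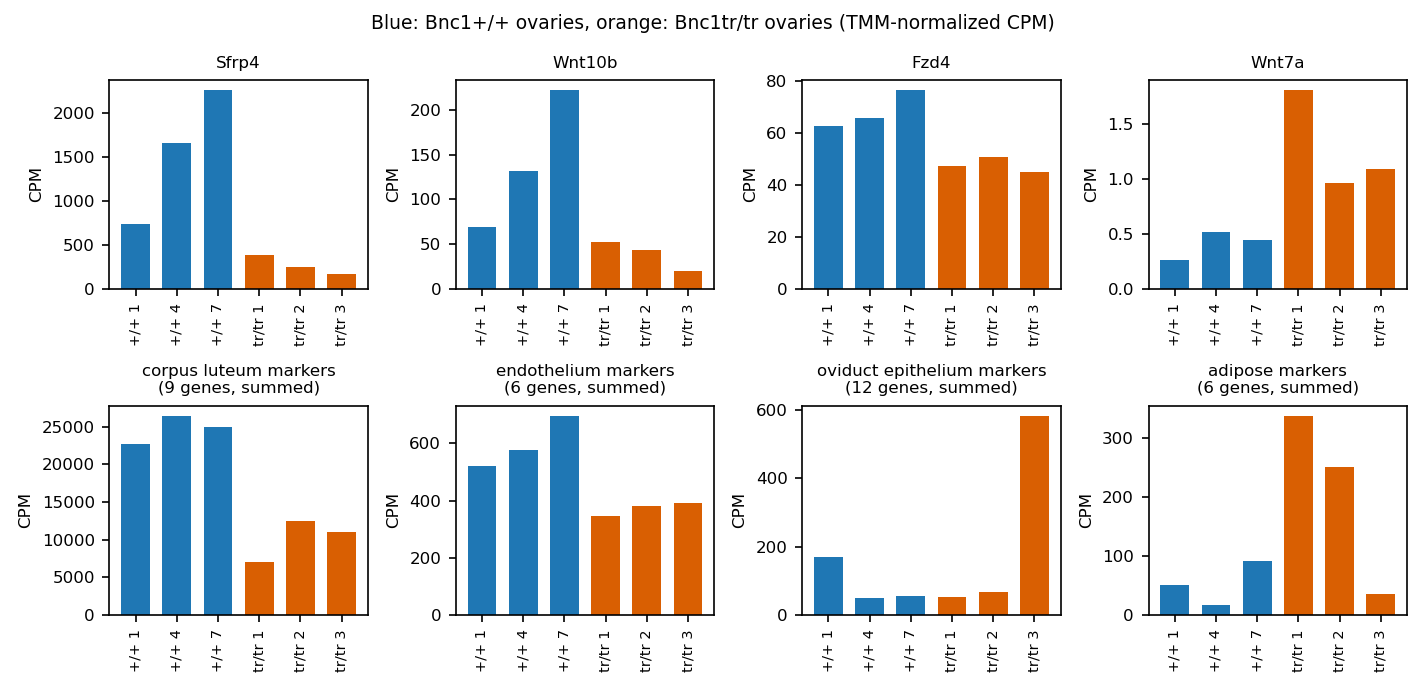
CPM of Sfrp4, Wnt10b, Fzd4 and Wnt7a in each ovary (upper row), above the summed CPM of corpus luteum, endothelium, oviduct epithelium and adipose markers (lower row). Sfrp4, Fzd4 and the corpus luteum and endothelium sums were all lower in the 3 Bnc1tr/tr ovaries, whereas the oviduct sum stood out in Bnc1tr/tr replicate 3, at 583 CPM, and the adipose sum in replicates 1 and 2, at 337 and 250.1 CPM.

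Further along the pathway, 68 other genes were listed by role and 63 could be tested. Of these, 3 were higher in Bnc1tr/tr (Sost, Nkd1 and Daam2) and 4 were lower (Tle2, Ctnnb1, Lgr4 and Apc2), where 2.88% of all genes tested were higher and 4.19% lower, with a median log2 fold change of 0.096. Values did not overlap between genotypes in 28 of the 63, a larger share than the 30.8% of all genes tested, and that difference was not tested. No Wnt secretion gene (3 tested) and no co-receptor (7 tested) passed. Among these, Porcn, which attaches the lipid to Wnt ligands, had a log2 fold change of -0.23 (adjusted p = 0.471), Wls, which carries them to the cell surface, 0.10 (0.610), and Lrp6 0.10 (0.685). The co-receptor Lrp5 was at 131, 131 and 141 CPM in Bnc1+/+ and 208, 149.96 and 161 in Bnc1tr/tr, all higher without passing (log2 fold change 0.36, adjusted p = 0.133).

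The largest change of the pathway was in Sost, which encodes sclerostin, an inhibitor that binds LRP5 and LRP6. Sost was at 0.335, 0.514 and 0.621 CPM in Bnc1+/+ ovaries and at 5.98, 2.89 and 4.76 CPM in Bnc1tr/tr, from 9, 17 and 18 counts against 168, 75 and 135. The genotypes were far apart, 9.17-fold (log2 fold change 3.20, SE 0.37, adjusted p = 0.00406), although the level stayed low. It was the only one of the 6 tested genes among the other secreted or membrane inhibitors to pass. Of that list, Frzb, a relative of the Sfrp genes, had a log2 fold change of -0.46 (adjusted p = 0.618), and Wif1, a Wnt-binding inhibitor, had too few counts to test.

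Among genes that receive and relay the signal, 3 passed the test. Lgr4, an R-spondin receptor, was at 84.6, 77.3 and 115 CPM in Bnc1+/+ and 58.7, 63.6 and 59.0 in Bnc1tr/tr (log2 fold change -0.61, SE 0.15, adjusted p = 0.0489), and its call was lost when any 1 ovary was left out, with limma-voom and with library size scaling (0.076). Its relative Lgr5 was at 19.8, 21.9 and 34.5 against 11.1, 18.6 and 8.95 CPM, also without overlap, but did not pass (-0.98, adjusted p = 0.0985). Ctnnb1, which encodes β-catenin, was at 1074, 1078 and 949.7 CPM in Bnc1+/+ and 600.4, 688 and 743 in Bnc1tr/tr. This was 1.53-fold lower, with no overlap (log2 fold change -0.61, SE 0.11, adjusted p = 0.0192, and 0.0603 and 0.101 without Bnc1+/+ replicate 1 or 4), and 15.1% of its exon bases are shared with other genes. Apc2, a relative of the destruction complex protein APC, was at 7.43, 7.16 and 6.90 CPM against 3.81, 4.81 and 3.81 (-0.79, SE 0.17, adjusted p = 0.0330). The call of Apc2 held without Bnc1tr/tr replicate 2 and was lost without any one of the other 5 ovaries (adjusted p between 0.0664 and 0.130). These were 1 of 5 genes tested among the R-spondin receptors and ligases and 2 of 13 in the destruction complex and relay, where 7 log2 fold changes were positive and 6 negative.

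In the nucleus, 1 of 12 factors passed. Tle2, a Groucho co-repressor that binds TCF/LEF factors, was at 175, 238 and 267 CPM in Bnc1+/+ and 79.6, 115 and 100.2 in Bnc1tr/tr (log2 fold change -1.21, SE 0.19, adjusted p = 0.0110, and 0.0708 without Bnc1+/+ replicate 4). Lef1 was at 1.52, 0.967 and 1.48 against 1.60, 2.12 and 1.76 CPM (0.47, adjusted p = 0.341). Of 8 tested planar polarity genes outside the Frizzled family, Daam2, a formin that binds Dishevelled, was higher, at 74.8, 74.99 and 82.3 CPM against 104, 100.5 and 104 (0.41, SE 0.08, adjusted p = 0.0227). Without Bnc1+/+ replicates 1 or 4 or Bnc1tr/tr replicate 3 the adjusted p of Daam2 was 0.0834, 0.122 and 0.0804. The values of Tle2 and Daam2 were without overlap, in opposite directions.

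Of 17 tested genes known as β-catenin targets, only Nkd1 passed. Nkd1, a feedback inhibitor that binds Dishevelled, was at 49.4, 49.7 and 52.8 CPM in Bnc1+/+ ovaries and 75.2, 73.7 and 77.9 in Bnc1tr/tr. It was 1.49-fold higher (log2 fold change 0.58, SE 0.07, adjusted p = 0.00575), with a tight spread in both genotypes, and it passed in all 13 other ways of processing. Axin2, the target most widely used as a readout of the pathway, was at 39.1, 29.8 and 29.97 CPM against 38.8, 54.0 and 40.9 and overlapped in 1 pair of ovaries (0.44, SE 0.16, adjusted p = 0.150). The 1 call in 17 stands beside 7.06% of all genes tested and is not read as a result about the list. Ctnnb1 RNA and Nkd1 RNA differed between genotypes in opposite directions. The corpus luteum and endothelium marker sums were lower in the same Bnc1tr/tr ovaries. The part of cell make-up in the values of the called pathway genes, Ctnnb1 and Nkd1 among them, was not tested.

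**Figure D5:**
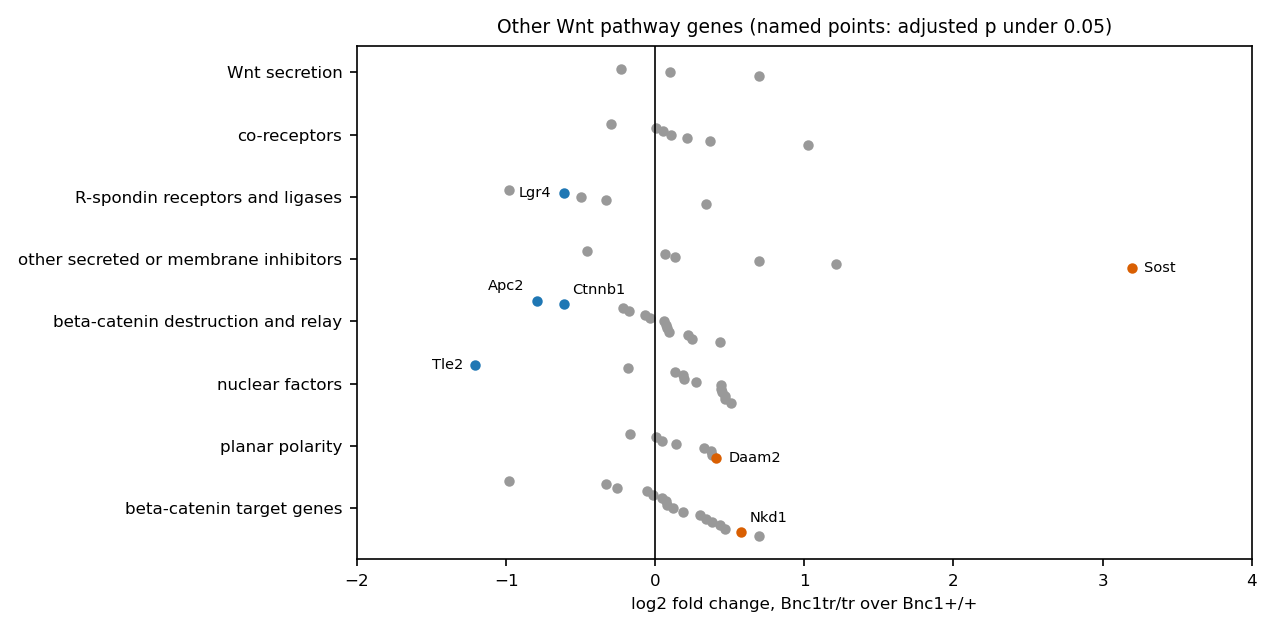
Log2 fold change of Bnc1tr/tr over Bnc1+/+ for the other tested Wnt pathway genes, 1 point a gene, by list (some genes are in more than 1 list). Named points passed an adjusted p of 0.05, in orange where higher (Sost, 3.20, Daam2 and Nkd1) and in blue where lower (Tle2, -1.21, Apc2, Ctnnb1 and Lgr4).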

How the data were processed

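Total RNA of 6 whole ovaries had been extracted with TRIzol, made into single-end libraries with the Ion Total RNA-Seq Kit and sequenced on the Ion Proton. The authors deposited raw counts per gene symbol, not normalized. The submitters' processing notes name the builds mm10 and Sscrofa10.2, the latter a pig build. The aligner, counter, annotation and strand setting are not given in the sources used here. Each library is a separate sample by the labels.

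Genes were filtered with filterByExpr (minimum count 10), normalized with TMM and compared with the quasi-likelihood test of edgeR 4.0.16 in R 4.3.3 (two-sided), using Benjamini-Hochberg adjustment over 19423 genes and a threshold of 0.05. The script was tested on simulated counts. DESeq2 1.42.0 and limma-voom (limma 3.58.1) were alternatives. Levels per kb used exon lengths of GENCODE M21 (GRCm38), whose positions are printed. The members and all lists were chosen with earlier results of these data known. Every member that passed or averaged at least 1 CPM, and every other pathway gene that passed, was named with its 6 values. A few core pathway genes were named whatever their result, some without those values. Markers of corpus luteum, granulosa, oocyte, endothelium, oviduct and adipose tissue are given in the text. Of the other marker lists, 1 of 10 theca and stroma genes and 1 of 12 surface epithelium genes were higher and none lower, and none of 6 smooth muscle or 6 macrophage genes passed.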

Additional observations from a re-analysis of the deposited data

How the results depend on the processing

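Of the members, 4 were called in the reported analysis. The number was 4 with DESeq2's size factors, with library size only and with a robust fit, 5 with no filter, 3 with at least 10 counts in every ovary (which removed Wnt7a), 3 with limma-voom and 6 with DESeq2, which added Wnt10b and Fzd6. Leaving out 1 ovary gave 0 to 3 called members, with 0 without Bnc1+/+ replicate 4, without Bnc1+/+ replicate 7 or without Bnc1tr/tr replicate 3. Without both ovaries with the most oviduct marker RNA, a choice made after seeing the data, 2 members (Sfrp4 and Wnt10b) and 2 other pathway genes (Sost and Tle2) were called. Of the other pathway genes, 7 were called in the reported analysis, 11 with DESeq2, and 2 to 7 when 1 ovary was left out. Leaving out an ovary also lowers the number of samples, and calls across all genes then fell from 1372 to as few as 320. No called member changed direction in any of these, whereas 9 of the 30 tested members changed sign at least once: Rspo1, Sfrp1, Sfrp2, Wnt7b, Wnt2b, Wnt11, Fzd1, Fzd5 and Wnt4. No paired analysis was possible because the litter of each ovary is not given. The replicate numbers, of which the genotypes share only number 1, are not said to mark pairs. With 3 ovaries a genotype, p-values weigh the genotype difference against the spread among these ovaries of the same genotype. Neither the litter nor the estrous stage of each ovary is known, so their part in a difference was not tested.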
